A study of Mus musculus with 22 samples.

Results

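A set of 10 imprinted genes was followed through whole-hemisphere transcriptomes of dominant and submissive mice. The genes were Grb10, Cdkn1c, Peg3, Magel2, Ndn, Nnat, Dlk1, Igf2, Plagl1 and Snrpn, taken by name because they are imprinted, code for proteins, are active in the brain and have been tied to social behaviour. They make up 10 of the 24421 genes listed in each of the deposited count tables, and each was found in both tables. The rule used no measured value, although the genes were named with earlier results of these data known.

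Total RNA came from the right brain hemisphere of 22 mice of the inbred strain labelled C57B6/J OlaHsd, with no transgene or treatment. Ranks were set at 10 to 12 weeks of age with the tube test, where cage mates meet head-on in a tube and the mouse that backs out loses. The 4 groups were 7 dominant males, 7 submissive males, 4 dominant females and 4 submissive females. Cages held 4 mice, and 1 dominant and 1 submissive mouse came from each of 7 male cages and 4 female cages. Cages are numbered here by the replicate number of their mice, as male cages 1 to 7 and female cages 1 to 4. Female cages 3 and 4 are named as groups in the library names rather than by a cage number. In the paper, females found to be intermediate in rank (n = 8) were regrouped 4 together and ranked again 1 week later. Whether female cages 3 and 4 are those groups is not stated. Library names start differently for the sexes and each sex has its own count table, so sex, library set and table cannot be told apart. The replicates are separate mice. Counted reads ranged from 12403943 to 15805170 per male library and from 14967458 to 16488762 per female library. Expression is given as CPM, counts divided by library size and scaled once over all 22 libraries. Each of the 8 neuron and glia markers was detected, with summed levels of 7454 to 8648 CPM over the libraries.

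Most genes are read from both parental copies. An imprinted gene is read mainly from 1 copy, because DNA methylation laid down in the egg or sperm marks nearby control regions and keeps the other copy silent. Imprinted genes lie in clusters, are often rich in regulators of growth, and many are active in the hypothalamus and other brain regions that govern feeding, maternal care and social behaviour. Peg3, Magel2, Ndn, Nnat, Dlk1, Igf2, Plagl1 and Snrpn are read from the paternal copy, Cdkn1c from the maternal copy, and Grb10 from the maternal copy in most tissues but the paternal copy in neurons. Igf2 is an exception within the brain, where the choroid plexus and meninges read it from both copies. Mice in which the paternal Grb10 copy or the dose of Cdkn1c is altered have been described as behaving differently in dominance contests. Counts per gene add both copies in an inbred strain, so imprinting itself was not measured.

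Per kilobase of exon, the 10 genes spanned a wide range, and the 6 highest kept their order in all 22 libraries. Ndn, which codes for the neuronal MAGE protein necdin, stood highest at 183 ± 12.7 CPM per kb (SD, n = 22). Nnat, which codes for the small membrane protein neuronatin of the endoplasmic reticulum, followed at 114 ± 9.07 CPM per kb (SD, n = 22). Peg3, a large zinc finger protein gene, came next at 86.0 ± 12.3 CPM per kb (SD, n = 22). These 3 genes lay above 98.6%, 97.0% and 95.6% of the genes ranked on this scale.

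The 7 other genes were lower. Grb10, an adaptor that binds the insulin and IGF1 receptors and damps their signal, had 20.4 ± 1.88 CPM per kb (SD, n = 22). The growth factor gene Igf2 had 10.5 ± 1.76 CPM per kb (SD, n = 22). Cdkn1c, the cyclin-dependent kinase inhibitor p57, and Plagl1, the zinc finger transcription factor ZAC1, had means of 3.80 and 2.52 CPM per kb. Dlk1, a membrane protein related to Notch ligands, had 1.34 CPM per kb, Magel2, a MAGE protein that works with a ubiquitin ligase, 1.09 CPM per kb, and Snrpn, the brain form of a spliceosomal Sm protein, 0.811 CPM per kb. Each gene exceeded the next in this order in all 22 libraries, except that Cdkn1c exceeded Plagl1 in 21, Dlk1 exceeded Magel2 in 18 and Magel2 exceeded Snrpn in 18. The order of Dlk1, Magel2 and Snrpn therefore changed between libraries. The low value for Snrpn is uncertain, because 1970 of its 2380 exon bases are shared on the same strand with Snurf, and how the counting treated shared bases is not given in the sources used here. Plagl1 shares 180 of 5261 exon bases with Hymai on the same strand. On the opposite strand, Peg3 shares 865 of 6624 bases with Peg3os and Igf2 shares 98 of 4236 with Igf2os.

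**Figure D1:**
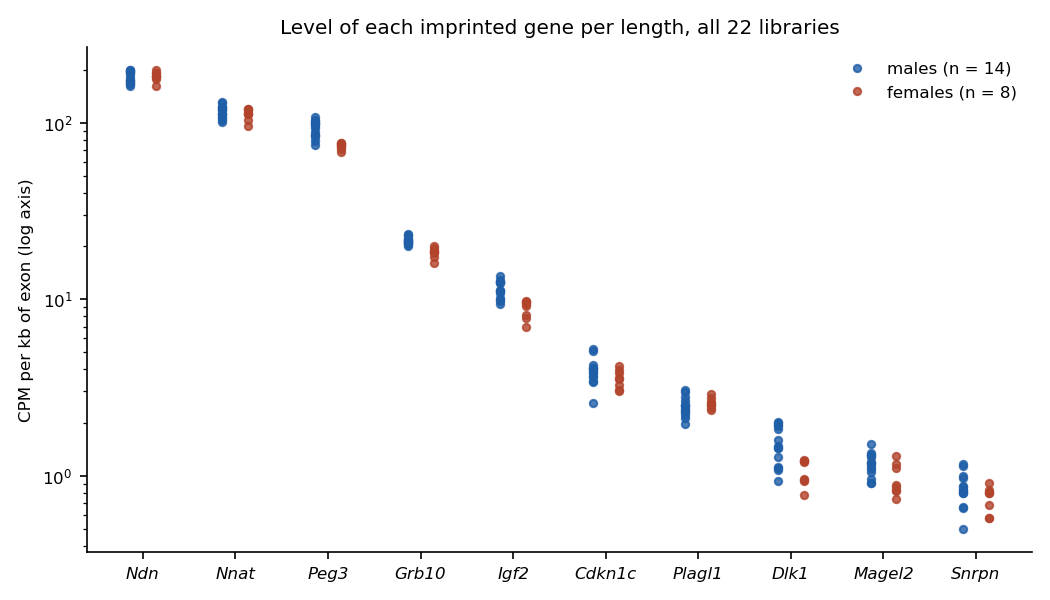
Level of each of the 10 imprinted genes in CPM per kilobase of exon, on a log axis, with 1 point per library for 14 males (blue) and 8 females (red). Means over the 22 libraries run from 183 for Ndn down to 0.811 for Snrpn, and only the last 3 genes trade places with a neighbour in more than 1 library.

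Rank was compared first within males. Grb10, at chr11:11930499-12037420 (mm10, minus strand), had a lowest, median and highest value of 106, 111 and 121 CPM in dominant males and 103, 109 and 120 CPM in submissive males. The ranges nearly coincided, and its log2 fold change for dominant relative to submissive males was 0.01 (standard error, SE, 0.0404, with edgeR's quasi-likelihood test giving an adjusted p of 1.00). The dominant mouse had the higher Grb10 value in 4 of 7 male cages.

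Cdkn1c, at chr7:143458339-143461050 on the minus strand, had the largest fold change of the 10 genes in males. Its lowest, median and highest values were 7.04, 7.97 and 10.1 CPM in dominant males. In submissive males they were 5.03, 7.16 and 7.92 CPM. The ranges overlapped, with 4 dominant males above the highest submissive male and 3 below it. The log2 fold change was 0.28 (SE 0.101, unadjusted p = 0.0127, edgeR adjusted p = 1.00). The dominant mouse was higher in 6 of 7 cages, with a mean within-cage difference of 0.28 on the log2 scale (SD 0.268; exact permutation test within cages, two-sided, p = 0.0469; the smallest p that 7 cages allow is 0.0156). Among all 14737 genes tested, 9.3% had the same direction in at least 6 male cages. Fitted on 4 cages alone (1 to 4) the log2 fold change was 0.21, and on the other 3 (5 to 7) it was 0.36.

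Igf2, at chr7:142650768-142661035 on the minus strand, showed the opposite sign in males. Its lowest, median and highest values were 40.0, 45.7 and 53.0 CPM in dominant and 41.8, 52.9 and 57.4 CPM in submissive males. The groups overlapped over most of their range. The log2 fold change was -0.18 (SE 0.0705, unadjusted p = 0.0198, edgeR adjusted p = 1.00), and the dominant mouse was lower in 5 of 7 cages (exact permutation test within cages, two-sided, p = 0.0938).

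Of the 10 genes, 0 passed an adjusted p of 0.05 between male ranks in edgeR, as in DESeq2, and 2 (Cdkn1c and Igf2) had an unadjusted edgeR p under 0.05. Over all 14737 genes the test called 0%, and 1.32% had an unadjusted p under 0.05. The log2 fold changes were above 0 for 5 genes and below 0 for 5 (51.4% of all genes were below 0), with a median of -0.01 against -0.00 over all genes tested. Summed levels of 10 choroid plexus markers were 634 to 1115 CPM in dominant and 501 to 892 CPM in submissive males. All 10 were above 0 on the log2 fold scale, 2 (Ttr and Folr1) with an unadjusted edgeR p under 0.05, and 0 were called. All 5 Purkinje cell markers (median -0.23) and 7 of 10 meningeal fibroblast markers were below 0, and 3 of 3 dopaminergic markers above 0. None of these had an unadjusted edgeR p under 0.05. Summed levels of 5 Purkinje cell markers lay between 368 and 559 CPM in 13 males but at 177 CPM in dominant male 1. Their part in the values above was not tested, and in hemisphere RNA fewer cells of a type cannot be told apart from less RNA per cell.

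In each sex the dominant and submissive values of all 10 genes overlapped. The ranks did not overlap for 0.00679% of genes tested in males and 5.46% in females.

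**Figure D2:**
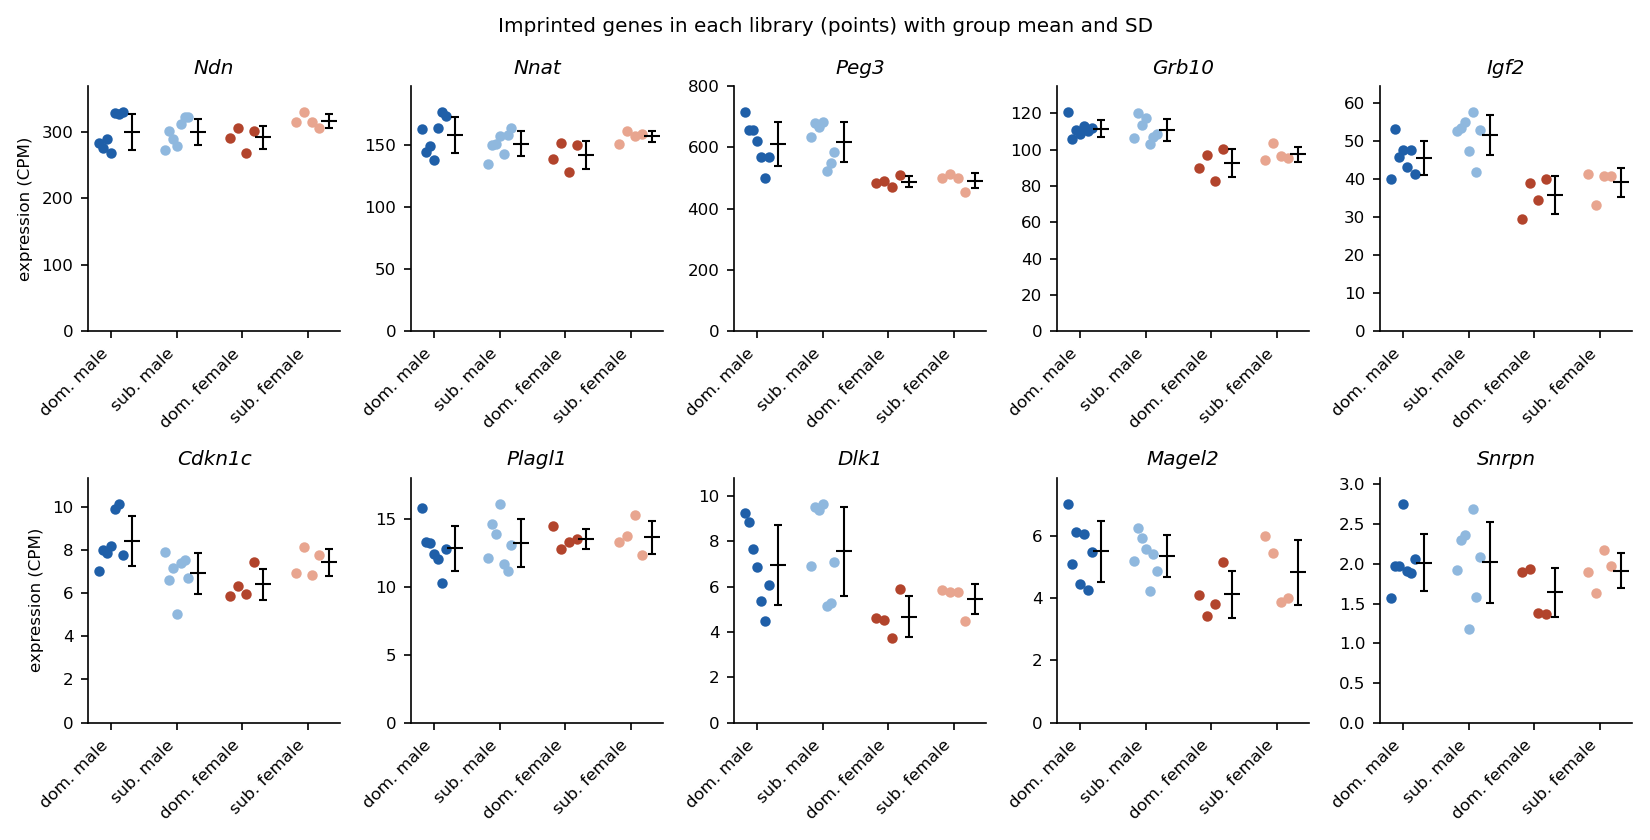
Expression in CPM of the 10 imprinted genes in each library (points), by group, with the group mean and SD in black (n = 7, 7, 4 and 4). Dominant and submissive values overlap for every gene in both sexes, while Grb10, Peg3 and Igf2 sit lower in most females than in most males.

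In females each of the 10 genes had a mean lower in dominant than in submissive mice, and none of the differences passed the adjusted threshold. Nnat, at chr2:157560078-157562525 on the plus strand, had 139, 151, 128 and 150 CPM in dominant females of female cages 1 to 4. Their submissive cage mates had 151, 161, 157 and 159 CPM. The dominant female was the lower one in 4 of 4 cages, although the ranges of the ranks met at 151 CPM. The log2 fold change was -0.15 (SE 0.0452, unadjusted p = 0.00320, edgeR adjusted p = 0.199).

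Ndn, at chr7:62348277-62349927 on the plus strand, had 292, 306, 268 and 302 CPM in the dominant females in the same order. The submissive females had 315, 330, 316 and 305 CPM. Here too the dominant female was lower in 4 of 4 cages, with ranges that met near 306 CPM. The log2 fold change was -0.12 (SE 0.0384, unadjusted p = 0.00473, edgeR adjusted p = 0.235).

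Cdkn1c had 5.86, 6.33, 5.96 and 7.45 CPM in dominant females and 6.93, 8.14, 6.84 and 7.75 CPM in their submissive cage mates. The dominant female was lower in each of the 4 cages, whereas dominant males had been higher in 6 of 7. Its log2 fold change in females was -0.22 (SE 0.108, unadjusted p = 0.0532, edgeR adjusted p = 0.483). For Nnat, Ndn and Cdkn1c alike, the exact permutation test within cages gave p = 0.125, two-sided, the smallest that 4 cages allow. Among all 14865 genes tested in females, 17.2% kept 1 direction in every cage.

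Grb10 in females had 90.2, 97.0, 82.8 and 100.2 CPM in dominant and 94.2, 104, 96.5 and 95.3 CPM in submissive mice, with a log2 fold change of -0.08 (SE 0.0498, edgeR adjusted p = 0.618). Dominant female 3 was the lowest of the 8. The other genes had log2 fold changes from -0.24 for Magel2 to -0.02 for Peg3. In all, 0 of 10 genes passed an adjusted p of 0.05 in edgeR, as in DESeq2, and 2 had an unadjusted p under 0.05, against 0.0942% called and 10.5% unadjusted over 14865 genes. The sign was below 0 for 10 of 10, against 50.9% of all genes, with a median log2 fold change of -0.14 against -0.00. In a list of other imprinted genes, described below, 22 of 38 tested were below 0, with a median of -0.02. The genes share libraries, so the 10 signs are not independent of each other. Without dominant female 2, dominant female 3, submissive female 2 or submissive female 3 the count was 9 of 10 each time. In female cages 1 and 2 alone, and in female cages 3 and 4 alone, it was 8 of 10.

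Markers of cell types were also compared between the female ranks. The 5 ependymal markers summed to 20.2 to 24.4 CPM in dominant and 25.0 to 33.7 CPM in submissive females, and the 5 serotonergic markers to 11.9 to 26.7 CPM and 27.1 to 50.1 CPM. The 10 hypothalamic markers summed to 28.3 CPM in dominant female 3, below every other female (the submissive females had 54.6 to 63.0 CPM). Every tested marker of the choroid plexus (10), ependymal (5), dopaminergic (4), hypothalamic (7) and serotonergic (4) lists had a log2 fold change below 0, and of these the serotonergic genes Slc6a4 and Tph2 were called lower by edgeR. Those calls ended with the length trend removed and without submissive female 1 or 3, where 0 genes in all were called. Also below 0, without a call, were 3 of 3 noradrenergic, 9 of 10 meningeal fibroblast and 4 of 5 Purkinje cell markers. Other lists went the opposite way without a call, with 5 of 5 striatal and 7 of 8 neuron and glia markers above 0 and the red cell marker Alas2 at 0.65 (unadjusted p = 0.000730, edgeR adjusted p = 0.149). Slc18a2 stands on both the dopaminergic and the serotonergic list. The part of these markers in the lower means of the imprinted genes was not tested.

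Whether the rank difference itself differed between the sexes was tested as an interaction over the 22 libraries. For Cdkn1c the female rank effect less the male one was -0.49 (SE 0.157, unadjusted p = 0.00409, edgeR adjusted p = 0.999). For Nnat it was -0.21 (SE 0.0872, unadjusted p = 0.0216, edgeR adjusted p = 0.999). Neither passed the adjusted threshold, and 0 of 10 genes were called against 0% of 15233, while 3.32% of all genes had an unadjusted p under 0.05. DESeq2 also called 0. In the same test all 10 choroid plexus markers (median -0.31, 5 with an unadjusted p under 0.05) and all 5 ependymal markers (median -0.36, 3 unadjusted) were below 0. So were 4 of 4 serotonergic (median -1.01, 2 unadjusted), 4 of 4 dopaminergic (median -0.41, 2 unadjusted) and 6 of 7 hypothalamic markers (median -0.28, 1 unadjusted), while 5 of 5 Purkinje cell and 7 of 8 neuron and glia markers were above 0. None of these markers was called by edgeR, and their part in the values of Cdkn1c and Nnat was not tested.

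Pooled over the 11 cages, with cage as a term, 0 of 10 genes differed by rank in edgeR or DESeq2, against 0% of all genes, and 2.78% of all genes had an unadjusted p under 0.05. Igf2 was the one gene of the 10 under that unadjusted limit, with a log2 fold change of -0.16 (SE 0.0596, unadjusted p = 0.0143, edgeR adjusted p = 1.00). The dominant mouse had less Igf2 RNA in 8 of 11 cages (exact permutation test within cages, two-sided, p = 0.0586). Cdkn1c, with its opposite signs in the sexes, had a pooled log2 fold change of 0.10 (SE 0.0858, edgeR adjusted p = 1.00). Grb10 had -0.02 (SE 0.0336, edgeR adjusted p = 1.00). In the pooled test 9 of 10 meningeal fibroblast markers (1 with an unadjusted p under 0.05, Col3a1) and 4 of 4 serotonergic markers (2 unadjusted) were below 0. So were 5 of 5 Purkinje cell, 5 of 5 ependymal and 6 of 7 hypothalamic markers (0 unadjusted) and 3 of 4 dopaminergic ones (1 unadjusted), while 5 of 5 striatal markers were above 0. None was called by edgeR, and their part in the Igf2 value was not tested.

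**Figure D3:**
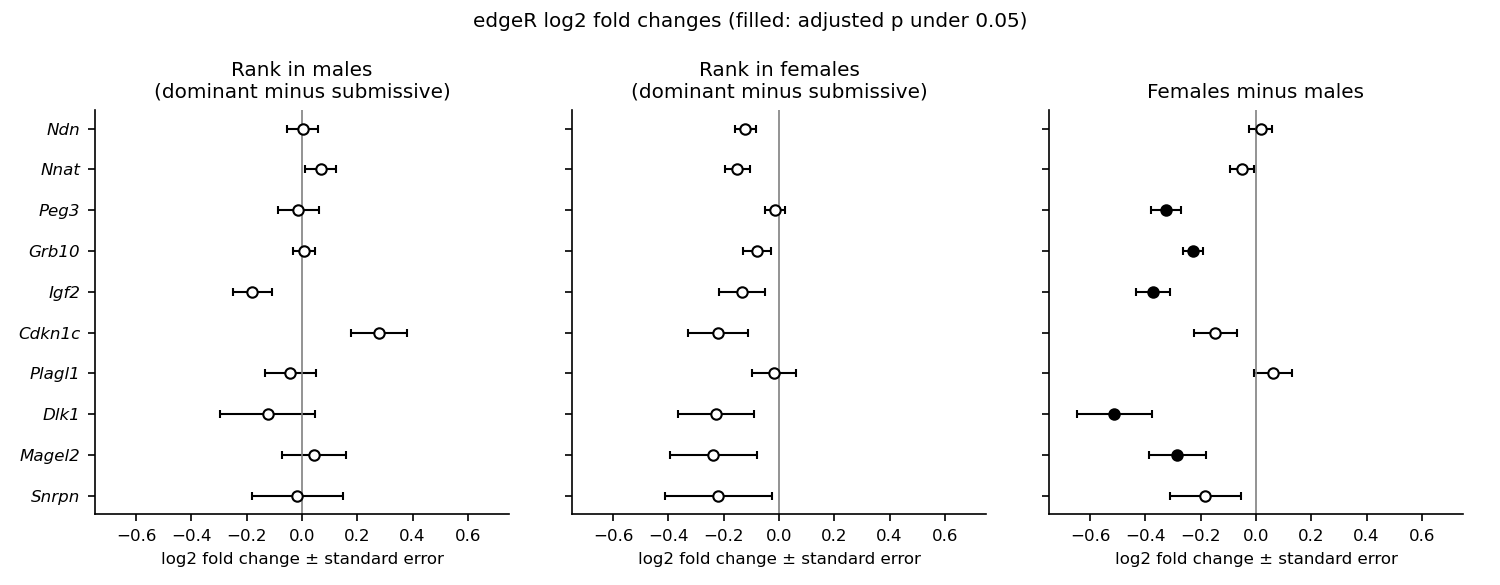
Log2 fold changes with standard errors from edgeR for rank in males, rank in females and females against males. Filled points have an adjusted p under 0.05. No gene is filled for rank, the female rank values all lie below 0, and 5 genes are filled below 0 for females against males.

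More of the 10 genes were called for cage than for rank in males. In a test of the 7 male cages with rank as a term, 3 of the 10 genes were called by edgeR's quasi-likelihood F test, Peg3 (F = 9.96, adjusted p = 0.0130), Ndn (F = 7.80, adjusted p = 0.0272) and Dlk1 (F = 7.20, adjusted p = 0.0335). Over all 14737 genes 5.89% were called. In females 0 of 10 were called by edgeR, 0 had an unadjusted p under 0.05, while 0.074% of 14865 genes were called and 5.11% had an unadjusted p under 0.05.

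Peg3, at chr7:6705960-6730419 on the minus strand, had 715, 657, 658 and 622 CPM in dominant males of cages 1 to 4 and 568.2, 499 and 568.3 CPM in those of cages 5 to 7. The submissive males had 636, 679, 666 and 684 CPM in the first 4 cages and 524, 549 and 585 CPM in the last 3. Every male of the first 4 cages was above every male of the last 3, in both ranks.

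Ndn ran the other way. Dominant males had 284, 277, 289 and 269 CPM in cages 1 to 4 and 329, 327 and 330 CPM in cages 5 to 7. Submissive males had 274, 302, 289 and 279 CPM and then 312, 323 and 322 CPM. Again the 8 males and the 6 males did not overlap.

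Dlk1, at chr12:109452823-109463336 on the plus strand, followed Peg3. Dominant males had 9.24, 8.88, 7.65 and 6.89 CPM in cages 1 to 4 and 5.38, 4.47 and 6.10 CPM in cages 5 to 7. Submissive males had 6.92, 9.53, 9.38 and 9.66 CPM and then 5.17, 5.29 and 7.09 CPM. The submissive male of cage 7 fell within the range of the first 4 cages, so the cages overlapped. Cage means differed by 1.89-fold between the highest and the lowest cage for Dlk1, 1.29-fold for Peg3 and 1.19-fold for Ndn.

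The division into cages 1 to 4 and 5 to 7 was known from the main expression component of these same males, so it is given as a description. Over all genes, 8.74% had no overlap between the 8 and the 6 males. Within cages, the likeness of the cage mates, as an intraclass correlation of log2 CPM, was 0.82 for Ndn, 0.74 for Peg3 and 0.71 for Dlk1 in males. It was -0.67 for Grb10, whose cage means lay between 108 and 114 CPM. In females it was 0.14 for Ndn, -0.72 for Peg3 and -0.80 for Dlk1.

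The cage calls were lost without single cages and with a correction for transcript length. With DESeq2 in place of edgeR, Dlk1 had no adjusted p (unadjusted p = 0.00291, likelihood ratio test) and was not called. Without cage 6 the adjusted p in edgeR rose to 0.0620 for Peg3. That for Ndn was above 0.05 without any of cages 3 to 7 (0.0532 to 0.0873), and that for Dlk1 without cage 2, 3, 5, 6 or 7 (0.0607 to 0.146). When a trend of each library's counts with exon length was taken out, a setting added after the data were seen, the adjusted p from edgeR was 0.152 for Peg3, 0.0983 for Ndn and 0.0679 for Dlk1, so 0 of the 3 calls were kept. Exon lengths were 6624 bases for Peg3, 4811 for Dlk1 and 1651 for Ndn. Cage and library order cannot be told apart, and the litter and day of collection of each cage are not given.

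Markers of cell types were called in the same test of male cages. By edgeR's quasi-likelihood F test they were the serotonergic genes Slc6a4 (F = 12.4, adjusted p = 0.00657) and Tph2 (F = 7.24, adjusted p = 0.0328), 2 of 4 tested, the striatal gene Ppp1r1b (F = 6.50, adjusted p = 0.0419), 1 of 5, and the neuronal gene Rbfox3 (F = 6.69, adjusted p = 0.0388), 1 of 8 neuron and glia markers. Each of the other lists with a tested marker had 0 called and 0 to 2 with an unadjusted p under 0.05. Serotonergic markers summed to 24.9 to 62.4 CPM in males of cages 1 to 4 and 16.98 to 63.4 CPM in those of cages 5 to 7, and striatal markers to 268 to 329 CPM and 312 to 340 CPM, so both overlapped. Their part in the cage calls of Peg3, Ndn and Dlk1 was not tested.

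**Figure D4:**
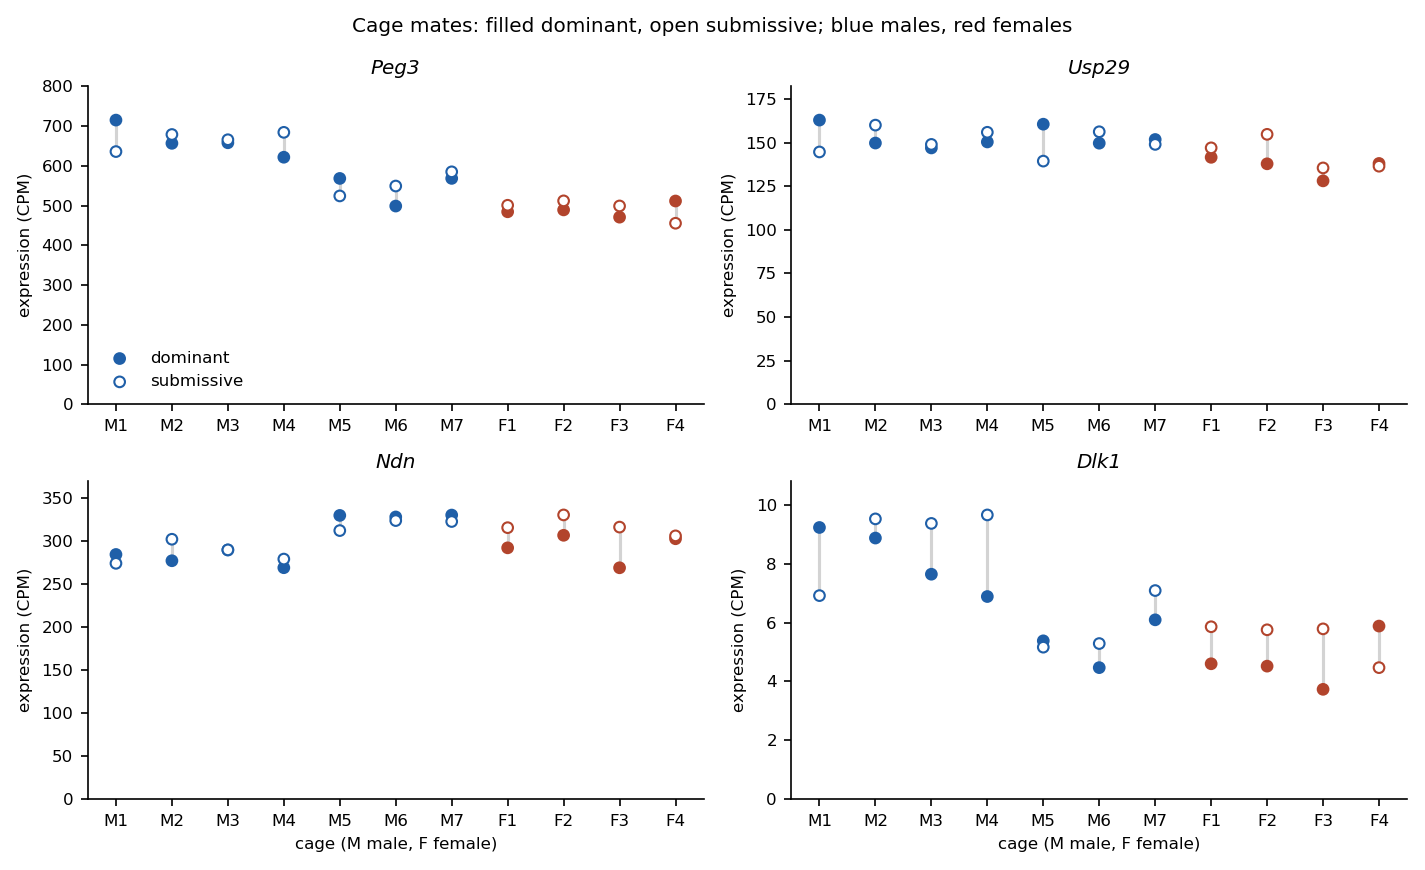
Expression in CPM of Peg3, its neighbour Usp29, Ndn and Dlk1 in the dominant (filled) and submissive (open) mouse of each cage, males blue and females red. Peg3 and Dlk1 step down and Ndn steps up between male cages 4 and 5, while Usp29 stays between 139 and 163 CPM in males.

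Promoters of the genes called for cage are shown because Peg3 shares its promoter with a neighbour that lacked its step between male cages. Promoter windows of 250 bases before to 50 bases after the start were taken from RefSeq (GRCm38.p6, equivalent to mm10), where 9 of the 10 genes had an entry. Each is printed 5′ to 3′ on the gene's own strand, with CpG dinucleotides, the sites of DNA methylation, in capitals.
Peg3, chr7:6730370-6730669, minus strand: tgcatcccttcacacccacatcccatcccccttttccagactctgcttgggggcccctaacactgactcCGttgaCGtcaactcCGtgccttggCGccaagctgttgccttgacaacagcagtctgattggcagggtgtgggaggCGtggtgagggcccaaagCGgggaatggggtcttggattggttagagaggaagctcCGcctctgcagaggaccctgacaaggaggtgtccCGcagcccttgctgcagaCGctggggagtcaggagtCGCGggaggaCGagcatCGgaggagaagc
Ndn, chr7:62348027-62348326, plus strand: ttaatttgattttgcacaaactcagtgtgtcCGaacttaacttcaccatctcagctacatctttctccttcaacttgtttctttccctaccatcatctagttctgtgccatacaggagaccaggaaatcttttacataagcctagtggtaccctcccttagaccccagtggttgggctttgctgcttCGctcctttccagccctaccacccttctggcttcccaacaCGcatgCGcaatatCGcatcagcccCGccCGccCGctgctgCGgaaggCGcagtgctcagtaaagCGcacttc
Dlk1, chr12:109452573-109452872, plus strand: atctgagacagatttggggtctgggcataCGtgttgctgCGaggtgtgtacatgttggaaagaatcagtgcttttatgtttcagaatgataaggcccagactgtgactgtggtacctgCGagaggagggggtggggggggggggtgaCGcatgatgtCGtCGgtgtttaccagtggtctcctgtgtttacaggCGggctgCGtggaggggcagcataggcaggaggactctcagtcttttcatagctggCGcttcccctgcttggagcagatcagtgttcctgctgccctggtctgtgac
The windows held 13, 11 and 9 CpG dinucleotides for Peg3, Ndn and Dlk1, against a median of 7 over 32817 windows. Of all windows, 62.1%, 58.6% and 54.2% held fewer, so these 3 lay near the middle. The letters GGGGCCCC, searched on both strands, occurred in the Peg3 window and in 1.07% of all windows. The letters GGGCGG, searched on both strands and overlapping no match of the first motif in these windows, occurred 2 times in the Ndn window, in neither the Peg3 nor the Dlk1 window, and in 35.6% of all windows. These are matches of letters and not measured binding sites.

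Usp29, a paternally read ubiquitin protease gene, starts opposite to Peg3, and their windows share 263 bases (chr7:6730370-6730632). Usp29 had 145 to 163 CPM in the males of cages 1 to 4 and 139 to 161 CPM in those of cages 5 to 7, which overlapped almost fully. Its cage F value in males was not called, and its intraclass correlation was -0.73 against 0.74 for Peg3. Meg3, the maternally read noncoding RNA gene of the Dlk1 cluster, differed between the same cages, with 1469 to 1871 CPM in the first 4 and 854 to 1203 CPM in the last 3 (F = 22.4, adjusted p = 0.00151 from edgeR's quasi-likelihood F test). Across males the samples form these 2 sets, so correlations are given within them. Dlk1 and Meg3 had a Pearson r of 0.01 in the 8 males of cages 1 to 4 and 0.74 in the 6 males of cages 5 to 7. Peg3 and Usp29 had 0.80 and 0.42, and Magel2 and Ndn, neighbours on chromosome 7, had 0.75 and 0.62. These are descriptions over libraries that share depth and length trends.

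Females were lower than males for several of the 10 genes, with the caveat that each sex has its own library set and table. The test had no cage term and counted cage mates as separate mice. Male cage mates were alike for Ndn, Peg3 and Dlk1 (intraclass correlation 0.82, 0.74 and 0.71). Standard errors and p values for these genes may therefore be too small. Grb10 had 82.8, 95.9 and 104 CPM (lowest, median and highest) in 8 females and 103, 110.4 and 121 CPM in 14 males. A single female reached into the male range. The log2 fold change for females relative to males was -0.23 (SE 0.0353, edgeR adjusted p = 1.37e-05).

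Igf2 had 29.4, 39.5 and 41.3 CPM in females and 40.0, 47.5 and 57.4 CPM in males. The overlap was narrow, and the log2 fold change was -0.37 (SE 0.0628, edgeR adjusted p = 4.18e-05). Peg3 had 455, 494 and 512 CPM in females and 499, 629 and 715 CPM in males, with a log2 fold change of -0.33 (SE 0.0547, edgeR adjusted p = 3.84e-05). The female Peg3 values overlapped only the lower end of the male range.

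Dlk1 had 3.73, 5.18 and 5.88 CPM in females and 4.47, 7.01 and 9.66 CPM in males, with a log2 fold change of -0.51 (SE 0.136, edgeR adjusted p = 0.00417). Magel2, at chr7:62376979-62381640 on the plus strand, had 3.44, 4.05 and 5.99 CPM in females and 4.23, 5.46 and 7.04 CPM in males. The Magel2 ranges overlapped widely, and its log2 fold change of -0.28 (SE 0.103, edgeR adjusted p = 0.0327) lost the call in 5 of 22 fits that each left out a library, with adjusted p up to 0.0723 without dominant female 2. The 4 others were submissive male 2, dominant female 3 and submissive females 3 and 4.

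Thus 5 of 10 genes were called lower in females and 0 higher, against 17.8% of 15233 genes called lower and 18.4% called higher. The median log2 fold change was -0.21 over the 10 genes and -0.00 over all genes tested. None of the 10 had tables that did not overlap, against 6.11% of all genes. Cdkn1c (-0.15, edgeR adjusted p = 0.148), Snrpn (-0.18), Nnat (-0.05), Ndn (0.02) and Plagl1 (0.06) were not called. Cdkn1c was called without submissive male 4 (edgeR adjusted p = 0.0439), and Nnat was called with the length trend removed (-0.10, edgeR adjusted p = 0.0463).

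The step between male cages entered this comparison. Against the 8 males of cages 1 to 4, chosen as a setting after the data were seen, females had a log2 fold change of 0.10 for Ndn (edgeR adjusted p = 0.00633). Against the 6 males of cages 5 to 7 it was -0.09 (edgeR adjusted p = 0.0192), so the value near 0 over all males joined calls of opposite sign. For Dlk1 the values were -0.75 (edgeR adjusted p = 1.99e-06) and -0.15 (adjusted p = 0.371). For Peg3 they were -0.44 (edgeR adjusted p = 1.36e-10) and -0.16 (adjusted p = 0.00130).

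Grb10 and Igf2 were called lower against either set of males. Grb10 had -0.25 and -0.20 (adjusted p = 1.76e-05 and 0.000312 from edgeR), and Igf2 had -0.40 and -0.34 (adjusted p = 3.14e-05 and 0.00143 from edgeR). Magel2 was called against the first set of males (-0.36, edgeR adjusted p = 0.0120) and not against the second (-0.18, adjusted p = 0.291). Cdkn1c (-0.24, adjusted p = 0.0289), Nnat (-0.13, adjusted p = 0.0173) and Plagl1 (0.20, adjusted p = 0.0310) were called by edgeR against the second set and not against the first. Snrpn was called against neither, with -0.17 and -0.20 (edgeR adjusted p = 0.375 and 0.350). Over the 28 alternative fits of females against males, Grb10, Igf2 and Peg3 kept their call and sign in all 28 and Dlk1 in 27.

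Markers of cell types also differed between the tables. Of 4 dopaminergic markers tested, edgeR called the transporter genes Slc6a3 (-0.36, adjusted p = 0.000448) and Slc18a2 (-0.41, adjusted p = 0.0135) and the tyrosine hydroxylase gene Th (-0.36, adjusted p = 0.000592) lower in females and En1 higher. Their list summed to 30.8 to 54.6 CPM in females and 50.6 to 72.4 CPM in males. Of 4 serotonergic markers tested, Slc18a2 and the serotonin transporter gene Slc6a4 (-1.03, edgeR adjusted p = 0.0408) were lower, with sums of 11.9 to 50.1 CPM and 16.98 to 63.4 CPM. The red cell marker Alas2 (-0.74, edgeR adjusted p = 4.52e-05) was also lower. Of 10 choroid plexus markers 1 was called, Kl (-0.36, edgeR adjusted p = 0.00127), and 6 had values above 0, with a list median of 0.07, while 2 of 5 Purkinje cell and 2 of 5 striatal markers were called higher. By edgeR, Snap25, a synaptic gene, was higher in females (0.45 on the log2 scale, adjusted p = 3.68e-11), and Mbp, a myelin gene, was lower (-0.25, adjusted p = 9.04e-06). Of 10 meningeal fibroblast markers 3 were called lower (Col1a2, Col3a1 and Slc6a20a), with summed levels of 144 to 170 CPM in females and 148 to 187 CPM in males. Of 7 hypothalamic markers tested 0 were called by edgeR, and 0 had an unadjusted p under 0.05. Their part in the differences of the imprinted genes was not tested.

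**Figure D5:**
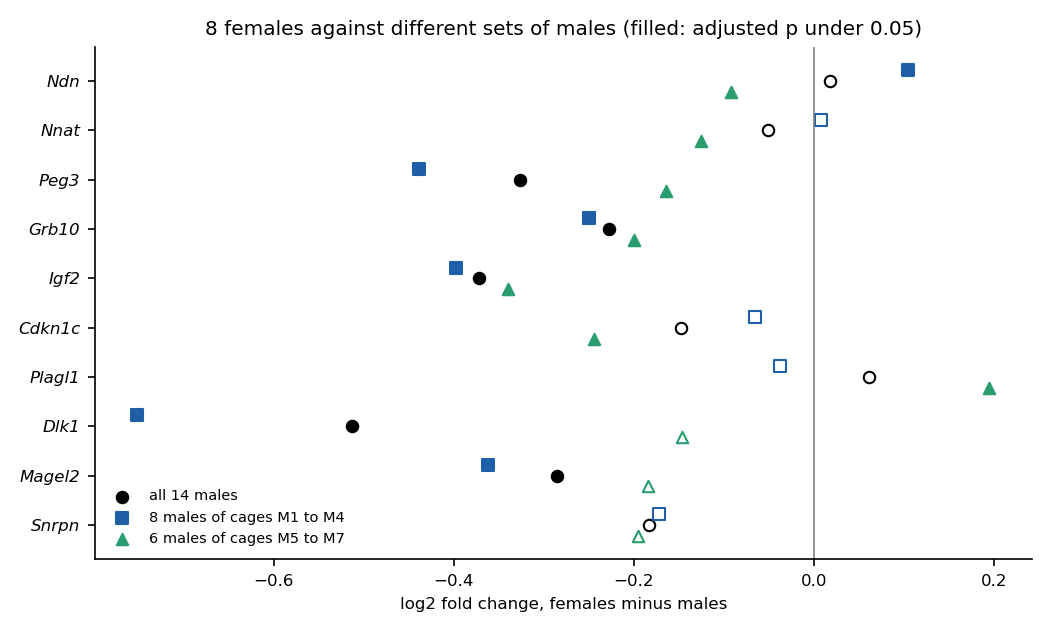
Log2 fold change from edgeR of the 8 females against all 14 males (circles), the 8 males of cages 1 to 4 (squares) and the 6 males of cages 5 to 7 (triangles). Filled symbols have an adjusted p under 0.05. Ndn is filled on both sides of 0, while Grb10 and Igf2 are filled at similar values in each set.

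A list of 44 other imprinted genes was set beside the 10. Of these, 40 were tested for females against males, and edgeR called 5 higher and 14 lower, with a median log2 fold change of -0.09, against 18.4% of all genes called higher and 17.8% lower. The higher ones included Gnas, which codes for the stimulatory G protein alpha subunit (0.24, adjusted p = 1.75e-07), and Nap1l5 (0.23, adjusted p = 1.27e-06). The lower ones included the IGF2 clearance receptor gene Igf2r (-0.35, adjusted p = 6.06e-08), Mest (-0.34, adjusted p = 0.00103), the retrotransposon-derived gene Peg10 (-0.52, adjusted p = 0.000660) and Usp29 (-0.12, adjusted p = 0.00422). For male cage, edgeR called 5 of 37, against 5.89% of all genes, namely Meg3, Rian and Mirg of the Dlk1 cluster, Kcnq1ot1, the noncoding RNA gene of the Cdkn1c cluster, and H13. For rank, edgeR called 0 of 37 in males (1 unadjusted) and 0 of 38 in females (8 unadjusted, against 10.5% of all genes).

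Partners of the members were then counted, with edgeR calls for females against males. Among insulin and IGF signalling genes, the pathway of Igf2 and Grb10, 12 of 20 were called, 7 higher and 5 lower. The receptor genes Igf1r (-0.35, adjusted p = 3.13e-05) and Insr (-0.18, adjusted p = 0.0112) were lower, as were Irs2, Igfbp5 and Pik3ca. The binding protein genes Igfbp6 (0.33, adjusted p = 0.000132) and Igfbp7 (0.27, adjusted p = 0.00783) and the kinase genes Akt1 and Akt2 were among those higher. The median over the 20 was 0.06, against -0.00 over all genes. Over all genes 36.2% were called, the share against which this count and those of the next lists stand. For male cage 3 of 19 were called, Akt1, Igfbp7 and Insr, against 5.89% of all genes.

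In the complex in which MAGEL2 works with the ubiquitin ligase TRIM27 and the WASH and retromer proteins of endosomes, 4 of 11 genes were called, a share near the 36.2% called over all genes. Trim27 (0.58, edgeR adjusted p = 2.40e-09), Vps26a and Vps26b were higher in females, while E430025E21Rik, the WASH subunit gene Washc5, was lower (-0.09). In the Notch pathway, to which Dlk1 is related, 7 of 17 were called, also against 36.2%. The receptor genes Notch1, Notch2 and Notch3 were lower (-0.30, -0.45 and -0.65), and the target genes Hes1, Hes5 and Hey1 and the ligand gene Jag2 were higher (0.46, 0.67, 0.17 and 0.22). Of 10 genes of CDK inhibitors, cyclins and CDKs 2 were called, Ccnd2 lower (-0.22) and Ccne2 higher (0.17), and of 7 Sm core genes 3 were called higher, Snrpd1, Snrpd3 and Snrpf. Neither rank comparison gave a call by edgeR in any of these 5 lists, with 0 to 1 members under an unadjusted p of 0.05 per list in males and 0 to 2 in females, against 1.32% and 10.5% of all genes (0% and 0.0942% called).

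For each of the 10 genes, the genes most like it were taken by Pearson r of log2 CPM over the 22 libraries after removing the 4 group means, among 11254 genes with a mean count of at least 100. Dlk1 was most like Zfhx3 (r = 0.95), Peg3 (r = 0.95) and Fry (r = 0.90), so 2 of the 10 genes, on chromosomes 12 and 7, varied alike. Within the 8 males of cages 1 to 4 and the 6 males of cages 5 to 7, Dlk1 and Peg3 had r of 0.82 and 0.89. Among the genes over that count, which Dlk1 did not reach, Peg3 was most like Dst, Herc2 and Zfhx4 (r = 0.93 each), but with r of 0.50, 0.58 and 0.74 within the males of cages 1 to 4 and 0.92, 0.90 and 0.82 within those of cages 5 to 7. Plagl1 was most like Peg10 (r = 0.91), another imprinted gene, with r of 0.83 and 0.93 in the same sets of males.

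Ndn was most like Podxl2 (r = 0.95), Hsdl1 (r = 0.92) and Acot7 (r = 0.92), with r of 0.88, 0.64 and 0.81 in cages 1 to 4 and 0.83, 0.50 and 0.85 in cages 5 to 7. Nnat was most like 6330403K07Rik (r = 0.86, and 0.90 and 0.68 within the sets). Igf2 was most like Ptprm (r = 0.80, and 0.93 in each set), with the collagen gene Col1a2 among its closest 3 (r = 0.75, and 0.86 and 0.31 within the sets). Grb10 was most like Arhgap24 (r = 0.85, and 0.75 and 0.46 within the sets) and Magel2 like Arhgef15 (r = 0.83, and 0.93 and 0.76). Cdkn1c was most like Dram2 (r = 0.79, and 0.72 and 0.45 within the sets) and Snrpn like Hk2 (r = 0.78, and 0.94 and 0.05). Among the members themselves, Peg3 and Ndn had r of -0.75 over the 14 males with rank means removed, but 0.55 and 0.25 within the 2 sets of cages. Cdkn1c and Plagl1 had r of -0.87 over males, and -0.83 and -0.59 within the sets. These values describe libraries that share depth, cage and length trend, and no test was made of them.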

How the data were processed

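The authors used cutadapt for trimming, STAR 2.6.0a for mapping to mm10 and featureCounts 1.6.2 for counting, and deposited raw counts per gene in 1 table per sex. From these deposited counts, CPM were computed after TMM normalization in edgeR 4.0.16 under R 4.3.3, and log2 CPM with a prior count of 2. Exon lengths and coordinates were those of the deposited tables, and promoters came from RefSeq.

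Genes were kept by edgeR's filter (minimum count 10, minimum total 15) and tested with its quasi-likelihood test, with Benjamini-Hochberg adjustment over all genes tested and a threshold of 0.05. Rank was fitted within each sex without a cage term. Single genes were also tested by exact permutation, two-sided. The tests were checked on simulated counts with 200 changed genes. For rank and for females against males, the simulated counts held no shared cage effect and no trend with exon length. That check therefore says nothing on how these features affect the tests. The alternatives were DESeq2 1.42.0, its size factors, no filter, the cage block, removal of a loess trend on exon length (span 0.3), subsets of cages and leaving out each library or cage.

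By the library names, equal replicate numbers mark cage mates, which were killed together, so the numbers pair the mice. The mean correlation of their deviations from the group means was 0.177 in males (other pairs -0.0293) and 0.0239 in females (other pairs -0.00796). No libraries of a group were alike within sampling noise (54 pairs, mean chi-square of 1.81 to 16.6 per gene). The genes named are the 10 imprinted genes, the 3 most like each by correlation, genes sharing their exon bases or promoters, and members of 6 gene lists and 12 marker lists past a test, and Ipw and Snhg14 were added after their values were seen. The 10 genes and the lists were chosen with earlier results of these data known. Mature and precursor miRNA sequences were not used here.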

Additional observations from a re-analysis of the deposited data

Results flagged for a closer look

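In 40 groups (10 genes in 4 groups of 4 or 7 libraries) the gap between the extreme library and its nearest neighbour was compared with the group's range, and 3 libraries stood apart; chance alone sets about 1 in 20 groups apart. Dlk1 in submissive female 4 was 4.47 CPM, with the 3 other submissive females at 5.76 to 5.86 CPM. Igf2 in submissive female 2 was 33.2 CPM, with the others at 40.7 to 41.3 CPM. Snrpn in dominant male 4 was 2.76 CPM, with the 6 other dominant males at 1.56 to 2.05 CPM.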

How the results depend on the processing

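The female comparison rests on 4 cages, and Cdkn1c, Dlk1 and Magel2 on 55 to 145 and Snrpn on 15 to 40 counts per library, which bounds the precision of their values. The counts of genes called over the whole table for rank in females moved from 14 to 63 with DESeq2, 84 without the filter, 36 with the replicate block, 0 with the length trend removed, 8 with both that and the block, 5 in female cages 1 and 2 alone and 120 in female cages 3 and 4 alone, and ranged from 0 to 77 with each library left out (77 without dominant female 2, 0 without submissive female 1 or 3). For cage in males the count was 520 with the length trend removed and 375 (without cage 6) to 1841 (without cage 1) with each cage left out. For cage in females it was 5 with DESeq2, 99 without the filter, and 2 to 31 with each cage left out. The replicate block changed no call among the 10 genes. For females against males no block could be fitted, since each cage lies within 1 table.

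Some signs turned. For rank in males, cages 1 to 4 alone gave -0.038 for Grb10, -0.014 for Magel2, -0.033 for Ndn and 0.066 for Snrpn, and removal of the length trend gave 0.0015 for Peg3 (0.00047 with the replicate block) and -0.0040 for Ndn (-0.0054 with the replicate block). For rank in females, female cages 3 and 4 alone gave 0.027 for Peg3 and 0.17 for Magel2 (-0.24 over all 4 cages), and the other 2 cages gave 0.013 for Plagl1 and 0.12 for Snrpn (-0.22 over all 4 cages). For females against males, Ndn was -0.022 with the length trend removed and -0.092 against cages 5 to 7, and against cages 1 to 4 Nnat was 0.0085 and Plagl1 -0.037. With rank means removed, r was 0.17 for Dlk1 and Meg3 in females (-0.27 before) and 0.22 for Igf2 and Cdkn1c in males (-0.18 before). With each library left out, rank in males ranged from -0.011 to 0.028 for Grb10, -0.025 to 0.098 for Magel2, -0.022 to 0.027 for Ndn, -0.054 to 0.031 for Peg3, -0.098 to 0.0085 for Plagl1 and -0.10 to 0.065 for Snrpn. Rank in females ranged from -0.049 to 0.0037 for Peg3 and -0.063 to 0.039 for Plagl1. The interaction ranged from -0.016 to 0.14 for Igf2, -0.039 to 0.045 for Peg3 and -0.020 to 0.087 for Plagl1, females against males from -0.0053 to 0.027 for Ndn, and pooled rank from -0.11 to 0.0049 for Magel2, -0.040 to 0.016 for Nnat, -0.030 to 0.00060 for Peg3 and -0.069 to 0.0033 for Plagl1. The cause of these changes was not tested.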

Other observations

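Ipw, a noncoding RNA gene of the cluster on chromosome 7 that holds Ndn, Magel2 and Snrpn, was chosen after its values were seen. It had 236 to 480 CPM in the 14 males and 157 to 207 CPM in the 8 females, which did not overlap, as was true of 6.11% of the genes tested between the tables. Snhg14, the long noncoding host RNA gene of the same cluster, had 97.1 to 140 CPM in males and 97.6 to 122 CPM in females, which overlapped.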
